A study of Mus musculus with 31 samples.

Results

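This account covers 9 whole hearts of male mice, 4 carrying 2 Met alleles of the Bdnf gene (Met/Met) and 5 carrying none (Val/Val), out of 31 hearts in the series. The hearts were chosen by their labels, which give sex by the first letter of the title, and genotype. All of the mice were 8 weeks old and came from the Val66Met line, in which the Met allele is a knock-in of the human BDNF sequence and the Val allele is the gene of the mouse. Met/Met and Val/Val hearts therefore differ in the species of the Bdnf coding sequence as well as in the Val66Met substitution, and the effects of the 2 cannot be told apart. Mice were bred from heterozygous pairs, with littermates as controls. RNA was sequenced from the whole organ, and the question of the comparison was which genes and processes differ in hearts with 2 Met alleles. In RNA from a whole heart, fewer cells of a type and less RNA per cell cannot be told apart.

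Brain-derived neurotrophic factor (BDNF) is a secreted growth factor that signals through the receptor TrkB and, as its precursor, through p75 and sortilin. The Val66Met substitution lies in the prodomain and is known to reduce the regulated secretion of BDNF from neurons. In the heart, BDNF is known for roles in the vessel wall and in contraction. Major histocompatibility complex (MHC) class I molecules present peptides from inside the cell and are made by almost every cell type, whereas class II molecules are made mainly by antigen-presenting cells. The genes of both pathways are well known to be induced by interferon gamma.

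The 9 hearts came from 3 sequencing projects, taken as batches. Of the Val/Val hearts, replicates 1 and 2 were in the first batch, replicate 3 in the second and replicates 4 and 5 in the third, whereas Met/Met replicates 1 to 3 were in the first batch and replicate 4 in the second. On the log2 scale, all batches within a group share 1 mean for each gene of the table. A heart alone in its batch, Val/Val replicate 3 or Met/Met replicate 4, therefore lies exactly on its group mean, and a pair of hearts from the same batch mirror each other around it. The 9 hearts carry only 4 independent deviations, so batch was counted in the degrees of freedom, with 17 residual degrees of freedom over all 31 hearts. Without the outlying gene Gm4613, the values of a heart summed to between 28711900 and 29511900. The values are normalized expression and not read counts, so the depth behind a single gene is unknown. The summed level of 5 cardiomyocyte markers (Myh6, Myl2, Tnnt2, Actc1 and Tnni3) was 1055880 to 1116180 in Val/Val and 1114790 to 1230620 in Met/Met hearts. The markers of the labelled tissue were thus high in every heart.

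Of 13733 genes tested, 907 (6.6%) were higher and 478 (3.48%) were lower in Met/Met hearts at an unadjusted p under 0.05 (limma). In what follows, "rose" and "fell" refer to genes past that threshold, and "called" to those that also changed at least 1.5-fold. The called genes were 126 higher (0.917% of those tested) and 65 lower (0.473%). For 107 of the 191 called genes (0.779% of those tested), no Met/Met heart overlapped any Val/Val heart. Whatever the size of their difference, 1053 of the 13733 genes (7.67%) had separate hearts. With Benjamini-Hochberg adjustment over all genes, 20 passed at 0.05 (0.146%), 16 higher and 4 lower, and the hearts of all 20 were separate. The 2 directions differed in kind, since 69.8% of the called genes that rose were annotated as protein-coding, but only 23.1% of those that fell, against 86.2% of the genes tested. With the trend on transcript length that is described further on removed, the called genes were 74 higher and 78 lower. The counts depended on single hearts. Without Val/Val replicate 1, 199 genes were called higher and 159 lower. The genes called lower numbered 43 without Val/Val replicate 2 and again 43 without replicate 5, but 100 without Val/Val replicate 4 and 159 without Met/Met replicate 1. The number of genes with an adjusted p under 0.05 was 1 when any of Val/Val replicates 2 and 3 or Met/Met replicates 2, 3 and 4 was left out, 2 without Val/Val replicate 4, 40 without Met/Met replicate 1 and 53 without Val/Val replicate 5. Val/Val replicate 3 and Met/Met replicate 4 lie on their group means. Here and below, leaving either out moved no log2 fold change, and the counts changed only through the standard errors of a smaller group. Only the fall of Yy2 passed the adjustment in every one of these 9 fits.

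Genes of the MHC class I pathway rose as a group. Of 24 genes tested, 16 (66.7%) rose and 2 fell, and the median log2 fold change was 0.45, against 0.00 over all genes. B2m, the light chain shared by all class I molecules (chromosome 2, 122147686 to 122153083, GRCm38), had values of 2987, 1872, 2365, 2519.6 and 2219.8 in the Val/Val hearts and 4179, 4358, 5281 and 4582 in the Met/Met hearts. The groups were separate, and the difference was 0.95 ± 0.19 on the log2 scale (SE; adjusted p = 0.0423). Among the heavy chains, the nonclassical gene H2-Q7 had values of 240, 131, 177, 184 and 171 in Val/Val and 439, 458, 564 and 484 in Met/Met hearts. The lowest Met/Met value exceeded the highest Val/Val value, with a log2 fold change of 1.45 ± 0.29 (adjusted p = 0.0423). H2-Q6 changed by 1.66 ± 0.30 (adjusted p = 0.0392) and H2-Q4 by 0.83 ± 0.15 (adjusted p = 0.0392). These Q-region genes are near-identical copies of each other, so the share of reads given to each is uncertain. The classical heavy chains H2-K1 (0.84 ± 0.19) and H2-D1 (0.62 ± 0.17) rose too, as did the immunoproteasome subunits Psmb9 (0.79 ± 0.25) and Psmb8 (0.77 ± 0.18), the peptide transporter subunit Tap1 (0.68 ± 0.23) and Nlrc5 (0.64 ± 0.28), the transactivator of class I genes. The 2 members that fell, Pdia3 (-0.19 ± 0.07) and Canx (-0.13 ± 0.06), encode endoplasmic reticulum chaperones that also serve many other proteins.

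MHC class II genes moved in the same direction, with 8 of 9 tested genes higher, all 8 of them called, and a median log2 fold change of 0.85. H2-Aa, the class II alpha chain, was 646, 428, 525, 655 and 422 in Val/Val and 1071, 908, 1318 and 1086 in Met/Met hearts. There was no overlap between the groups, and the log2 fold change was 1.05 ± 0.31 (adjusted p = 0.213). H2-Ab1, its partner chain, changed by 1.03 ± 0.30 and Cd74, the invariant chain that escorts class II molecules, by 0.98 ± 0.28. Ciita, the master transactivator of class II genes, rose by 0.85 ± 0.29. None of the class II genes passed the adjustment. Most class I, class II and complement C4 and factor B genes lie together in the MHC on chromosome 17. Between H2-K1 and H2-M3 (33996017 to 37274484, GRCm38), 25 of 89 tested genes (28.1%) had an unadjusted p under 0.05 and 19 were called, against 10.1% and 1.39% of all genes tested. Chromosome 17 as a whole held 25 of the called genes among 610 tested (4.1%). Cd74, Ciita, B2m and Nlrc5 lie on other chromosomes.

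**Figure D1:**
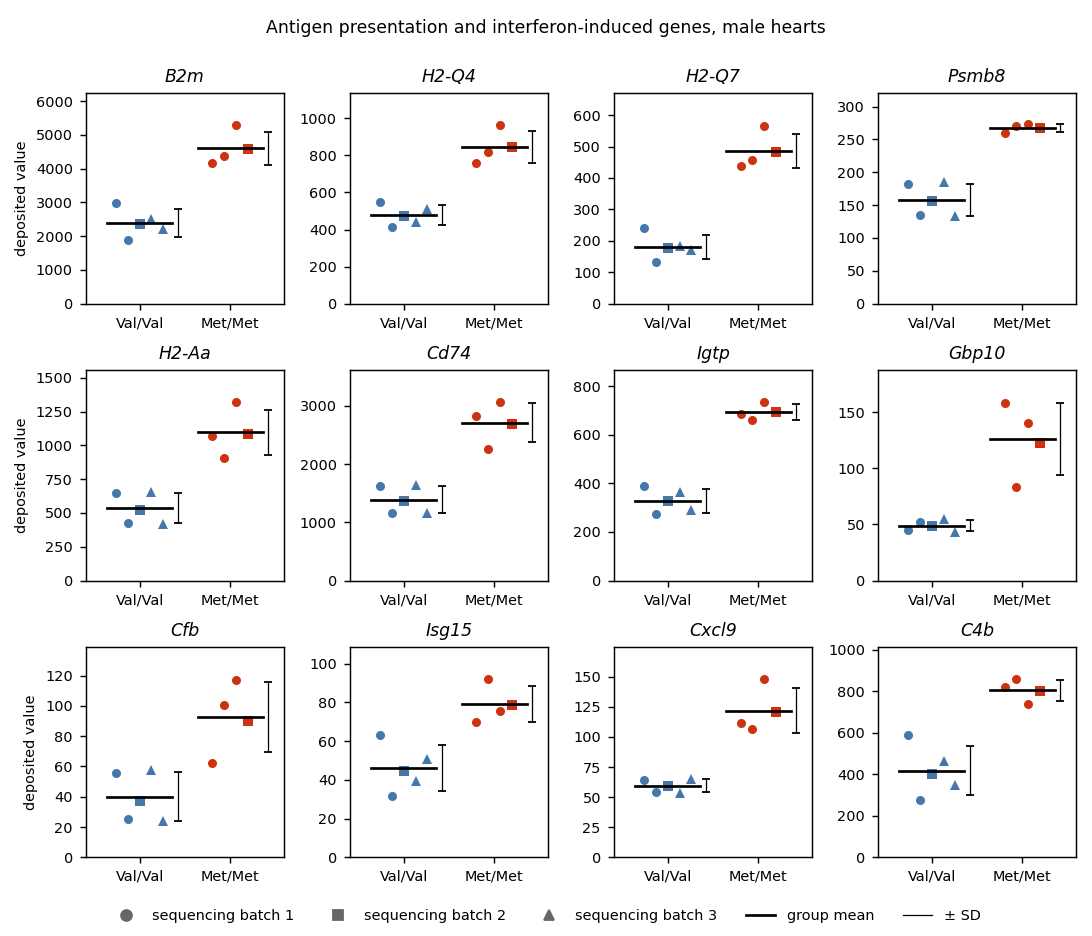
Deposited values (vertical axes, from 0) of 12 genes of antigen presentation, the interferon response, chemokines and complement in each of the 5 Val/Val and 4 Met/Met male hearts. Points are hearts with the batch as symbol, horizontal lines are group means and bars are ± SD. In all 12 panels the lowest Met/Met heart lies above the highest Val/Val heart, but the 12 were picked from longer lists. Hearts were separate in 17 of 24 class I, 7 of 9 class II and 7 of 17 GTPase genes. They were separate in 6 of 39 interferon-induced, 3 of 17 complement and 2 of 14 chemokine and cytokine genes, against 7.67% of all genes.

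The GTPases that interferon gamma induces against intracellular pathogens showed a similar pattern. Of 17 tested, 11 (64.7%) rose, 7 of them called, and none fell, with a median log2 fold change of 0.52. Igtp was 389.9, 272, 326, 365 and 291 in Val/Val and 687, 659, 735 and 693 in Met/Met hearts, and Gbp10 was 45, 52.5, 48.6, 54.9 and 43.1 in Val/Val and 159, 83.6, 141 and 123 in Met/Met hearts. In both genes the groups were separate, by 1.09 ± 0.30 (adjusted p = 0.181) and 1.34 ± 0.39 (adjusted p = 0.199) on the log2 scale. Ifi47 rose by 1.04 ± 0.31. The Gbp and Tgtp genes occur as tandem copies whose reads can be shared. The count was 7 when the second batch was left out. In the broader list of interferon-induced genes 11 of 39 (28.2%) rose, 2 of them called, and none fell. Differences were positive in 33 and negative in 6 of the 39, and the median was 0.18. Isg15, a ubiquitin-like modifier, was 63.3, 31.6, 44.7, 39.6 and 50.5 in Val/Val and 70, 92, 75.7 and 78.7 in Met/Met hearts, a difference of 0.82 ± 0.25 without overlap. Lgals3bp changed by 0.57 ± 0.18 with hearts that overlapped. Oas2 (-0.10 ± 0.22), Ifi44 (-0.06 ± 0.25), Samd9l (-0.66 ± 0.40) and Mx2 (0.11 ± 0.25) were among the members that did not pass the test. They were picked after their values were seen and do not stand for the list. The count of 11 depended on single hearts. It was 4, 7 and 5 without Val/Val replicates 2, 3 and 5, was 6, 3 and 6 without Met/Met replicates 1, 3 and 4, and was 14 without Val/Val replicate 1. Across the same 9 fits the class I count ranged from 14 to 17, the class II count from 7 to 8, and the GTPase count from 8 to 13.

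Promoters of these genes were read because their members moved together. A pair of motifs was searched on both strands of windows from 250 bases before to 50 bases after the start, in RefSeq sequence of GRCm38.p6. The first, an interferon-stimulated response element (ISRE), was spelled GAAANNGAAA, and the second, an interferon gamma-activated site (GAS), was spelled TTCNNNGAA; the 2 can overlap. Windows were found for 9758 of the tested genes. The ISRE letters were in 2.96% and the GAS letters in 6.6% of all 12523 windows, against 81.8% and 54.5% of 11 windows of the GTPases, 42.4% and 18.2% of 33 windows of interferon-induced genes, 22.7% and 9.09% of 22 windows of class I genes, and 16.7% and 0% of 6 windows of class II genes. Among these 3 lists and the class II list together, the ISRE letters were in 42.5% of 40 windows of genes that rose and in 37.5% of 32 windows of genes that did not. Windows were read for 9 of the named genes of these lists, of which 3 held a match and 6 held neither spelling. Only these exact letters were searched, so a window without a match may still hold a variant of either element. The 3 with a match are given here with H2-Q4, 1 of the 6 without, and capitals mark the letters found; the ISRE lay 139 to 130 bases before the start in B2m and 34 to 25 bases before it in Igtp, where a GAS stood at 45 to 37 bases, while Isg15 had 3 overlapping matches between 78 and 57 bases before the start. Ifi47, Lgals3bp, H2-Aa, H2-Q6 and H2-Q7 also held neither spelling.
B2m, chr2:122147437-122147736, plus strand: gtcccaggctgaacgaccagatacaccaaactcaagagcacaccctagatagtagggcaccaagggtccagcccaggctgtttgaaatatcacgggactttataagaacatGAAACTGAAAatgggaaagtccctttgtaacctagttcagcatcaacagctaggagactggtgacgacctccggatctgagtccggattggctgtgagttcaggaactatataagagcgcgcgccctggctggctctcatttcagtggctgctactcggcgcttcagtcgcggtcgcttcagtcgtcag
Igtp, chr11:58199306-58199605, plus strand: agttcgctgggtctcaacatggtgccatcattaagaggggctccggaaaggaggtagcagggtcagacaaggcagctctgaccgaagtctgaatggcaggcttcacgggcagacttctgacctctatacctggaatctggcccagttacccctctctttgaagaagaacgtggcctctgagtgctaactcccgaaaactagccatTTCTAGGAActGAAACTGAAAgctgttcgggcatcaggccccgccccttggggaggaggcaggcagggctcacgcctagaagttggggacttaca
Isg15, chr4:156200769-156201068, minus strand: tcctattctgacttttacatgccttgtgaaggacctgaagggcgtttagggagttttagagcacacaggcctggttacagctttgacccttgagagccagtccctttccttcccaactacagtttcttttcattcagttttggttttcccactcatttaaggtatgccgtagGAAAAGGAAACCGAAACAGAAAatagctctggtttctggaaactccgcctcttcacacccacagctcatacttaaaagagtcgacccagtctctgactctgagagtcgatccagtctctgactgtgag
H2-Q4, chr17:35379367-35379666, plus strand: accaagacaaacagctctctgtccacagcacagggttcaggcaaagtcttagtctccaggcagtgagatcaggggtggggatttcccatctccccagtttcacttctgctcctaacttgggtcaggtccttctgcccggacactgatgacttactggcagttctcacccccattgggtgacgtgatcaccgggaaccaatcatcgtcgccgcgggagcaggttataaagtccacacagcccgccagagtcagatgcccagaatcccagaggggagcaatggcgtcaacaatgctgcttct

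A few complement and chemokine genes rose. Of 17 complement genes tested, 4 (23.5%) rose and none fell, with a median of 0.36. Over all genes tested, 6.6% rose and 3.48% fell. Cfb, a protease of the alternative pathway, was 55.4, 25.3, 37.5, 57.8 and 24.3 in Val/Val and 62.1, 101, 117 and 90.1 in Met/Met hearts. C4b was 588, 277, 403, 466 and 349 in Val/Val and 819.9, 859, 738 and 804 in Met/Met hearts. Both genes were separate between the groups, with log2 fold changes of 1.27 ± 0.44 and 1.00 ± 0.37, and C3, the central component, changed by 0.75 ± 0.27. A further complement gene, Cfd, lay under the mean of 29 that genes needed to be tested and was singled out after its values were seen. Cfd encodes factor D, which cleaves factor B and is made largely by fat cells. It was 31.4, 42.9, 36.7, 64.2 and 21.0 in Val/Val and 0.969, 26.1, 1.17 and 3.10 in Met/Met hearts. Met/Met replicate 2 overlapped the Val/Val hearts and the other Met/Met hearts were far below them, with a log2 fold change of -3.57 ± 0.67 (adjusted p = 0.0377, limma) in a fit without a minimum. Of the 6 other fat cell markers, which were tested, none passed in either direction. Of 14 chemokine and cytokine genes, 2 (14.3%) rose and 1 (7.14%) fell, so the list as a whole is too small to be set apart from those shares. Cxcl9, an interferon gamma-induced chemokine that attracts T cells, was 64.6, 54.2, 59.2, 53.6 and 65.3 in Val/Val and 111, 107, 148 and 121 in Met/Met hearts. It was separate in all hearts (1.03 ± 0.20, adjusted p = 0.0397), Cxcl16 changed by 0.53 ± 0.19, and Cxcl12, which retains progenitor cells in tissue, by -0.28 ± 0.12. The adhesion molecules Vcam1 (0.34 ± 0.08) and Icam1 (0.52 ± 0.15), which bind leukocytes to the vessel wall, rose without overlap, whereas the integrin chain Itga8 fell (-0.35 ± 0.15); these were the 3 that passed of 26 integrin and adhesion genes.

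Markers of immune cells were examined beside these genes. Of 19 macrophage and monocyte genes tested, 4 (21.1%) rose, against 6.6% of all genes, and none fell. Differences were positive in 16 and negative in 3, and the median was 0.35. The rises were those of Fcgr1 (0.90 ± 0.40), Fcer1g (0.70 ± 0.27), Tyrobp (0.61 ± 0.25) and Adgre1 (0.46 ± 0.20). The summed level of the list overlapped between groups, at 7712 to 13969.9 in Val/Val and 10525 to 13607 in Met/Met hearts, with Val/Val replicate 1 the highest of the 9. Cd4, carried by helper T cells and by some myeloid cells, was 48.4, 16.5, 28.2, 31.4 and 25.4 in Val/Val and 52.9, 65.7, 50.7 and 56.1 in Met/Met hearts. The groups were separate (0.99 ± 0.33), and Cd4 was 1 of only 2 T cell and NK cell genes tested. The CD3 chains of the T cell receptor complex, Cd3e and Cd3g, had no values in the data and could not be analysed. Of 2 B cell, 1 neutrophil and 3 mast cell genes tested, none passed the test in either direction. The 8 erythroid genes all had positive differences, with a median of 0.44 and none past the test, and their sum was 67295 to 121149 in Val/Val and 77609.7 to 189073 in Met/Met hearts. The part of immune or blood cells in the results above was not tested.

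**Figure D2:**
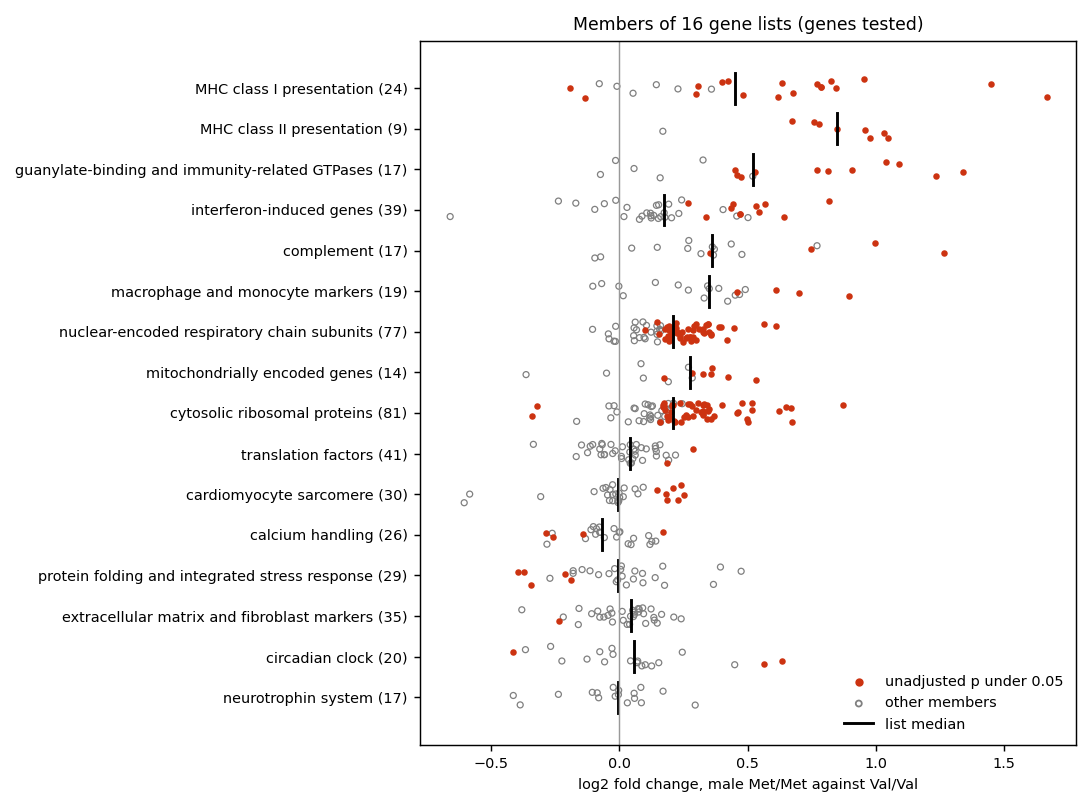
Log2 fold changes (horizontal axis) of the tested members of 16 gene lists in male Met/Met against Val/Val hearts, with filled points for an unadjusted p under 0.05, open points for other members, and a bar at the list median. The medians of the class I, class II and GTPase lists lie at 0.45, 0.85 and 0.52, those of the respiratory chain and ribosomal lists both at 0.21, and that of the neurotrophin list at 0.00.

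Outside the immune lists, the most numerous rises were small ones in the machinery of oxidative phosphorylation and of translation. Of 77 nuclear genes for respiratory chain and ATP synthase subunits, 53 (68.8%) rose and none fell, but only 1 was called, and the median log2 fold change was 0.21. Ndufs5, a subunit of complex I, was 1632, 1531, 1581, 1397 and 1789 in Val/Val and 1943, 2009, 2075 and 2008 in Met/Met hearts. The groups were separate by 0.35 ± 0.07 (adjusted p = 0.0397), as they were for Ndufa12, another complex I subunit, by 0.36 ± 0.07 (adjusted p = 0.0423). Atp5j2, a subunit of ATP synthase, changed by 0.57 ± 0.12 (adjusted p = 0.0522). Of 81 cytosolic ribosomal protein genes, 51 (63%) rose, 5 of them called, and 2 fell, with a median of 0.21. Rps28 was 296, 226, 259, 239.6 and 279.7 in Val/Val and 389, 445, 407 and 413 in Met/Met hearts, without overlap and with a log2 fold change of 0.67 ± 0.13 (adjusted p = 0.0397). Rpl35 changed by 0.48 ± 0.10 (adjusted p = 0.0423) and Rps20 by 0.34 ± 0.07, while Rpl5 (-0.34 ± 0.14) and Rpl12 (-0.32 ± 0.15) fell. Ribosomal protein genes have many processed pseudogenes that can take or give reads. The initiation and elongation factors did not follow, with 2 of 41 higher (Eef1b2 at 0.29 ± 0.10 and Eif3i at 0.19 ± 0.09) and a median of 0.04.

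Both of these lists consist largely of short transcripts, and the difference between the genotypes moved with transcript length across all genes. When the 13469 genes with an annotated transcript were divided into eighths by the length of the longest one, the median log2 fold change was 0.16 in the shortest eighth (up to 1385 bases) and declined at every step to -0.07 in the longest (6330 bases and more). In the shortest eighth 26.5% of the genes rose and 0.891% fell, and in the longest 0.95% rose and 6.65% fell. The shortest eighth held 56 of the ribosomal and 47 of the respiratory chain genes, of which 69.6% and 80.9% rose. Of the 863 other protein-coding genes of that eighth, 25.7% rose, with a median of 0.16. In longer transcripts 48% of 25 ribosomal and 50% of 30 respiratory chain genes rose. All 4 Met/Met hearts showed the gradient, with medians of 0.10, 0.21, 0.18 and 0.16 in the shortest eighth relative to the Val/Val mean, whereas the Val/Val hearts ranged from -0.08 to 0.08. The last of the 4, replicate 4, lies on its group mean and adds no separate observation. Val/Val replicate 1 had a like gradient, from 0.08 in the shortest to -0.06 in the longest eighth. Met/Met replicate 1 went from 0.10 to -0.04. Female Met/Met hearts (-0.03 in the shortest and 0.03 in the longest eighth) and male Val/Met hearts (-0.07 and 0.05) had medians of the opposite order against their own Val/Val controls. When the trend of each heart on length was removed, 22 of the 77 respiratory chain genes (28.6%, median 0.07) and 26 of the 81 ribosomal genes (32.1%, median 0.10) still rose, against 4.28% of all genes, and 74 instead of 126 genes were called higher. The class I count was again 16 of 24, the GTPase count was 12 of 17 and the class II count was 7 of 9, but the count of interferon-induced genes was 6 of 39.

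**Figure D3:**
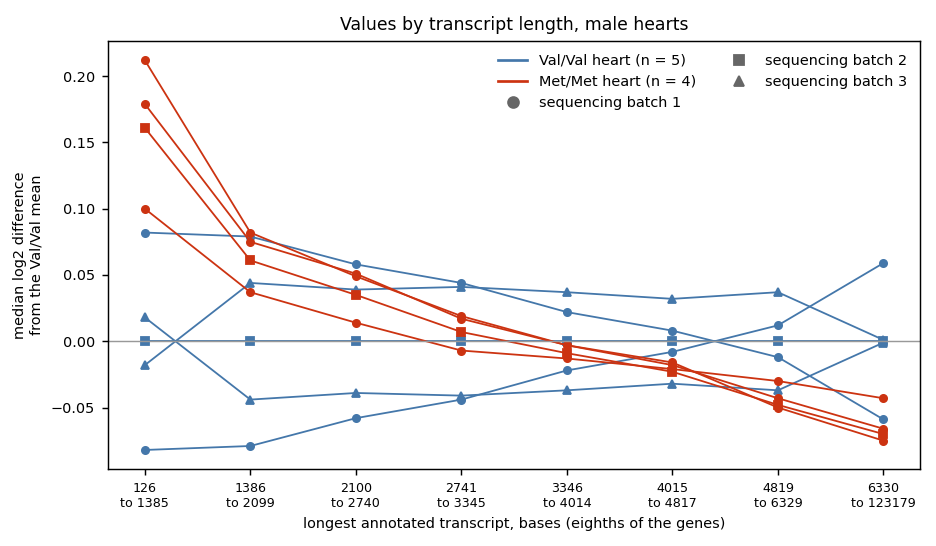
Median log2 difference from the Val/Val mean (vertical axis) over the genes in each eighth of transcript length (horizontal axis, bases), with 1 line per heart. The 4 Met/Met hearts run from 0.10 to 0.21 among the shortest transcripts down to between -0.04 and -0.07 among the longest, while the Val/Val hearts mirror each other in pairs around 0.

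Transcripts made in the mitochondria themselves rose alongside the nuclear subunits in part. Of 14 tested, 7 rose and none fell, with a median of 0.28. The complex I subunit mt-Nd4 was 122039, 138650, 130080, 127030 and 133203 in Val/Val and 186952, 163009, 175014 and 174718 in Met/Met hearts, separate by 0.43 ± 0.07 (adjusted p = 0.0296). The value of mt-Cytb, a subunit of complex III, was tied at 309162 in all 4 Met/Met hearts, so its difference of 0.28 ± 0.08 rests on the spread of the other groups. mt-Nd3 rose by 0.53 ± 0.17. The count was 2 of 14 once the length trend was removed. Female Met/Met hearts had a median of 0.31 for the same genes.

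In the contractile apparatus, 7 of 30 sarcomere genes (23.3%) rose, none fell and none was called, and the list median was 0.00. Myl2, the ventricular regulatory light chain, was 66536, 69166, 67838, 65859 and 69876 in Val/Val and 79561, 76300.3, 79561 and 78459 in Met/Met hearts. The groups were separate, with a log2 fold change of 0.21 ± 0.07 (adjusted p = 0.256). Tnnc1, the calcium-binding troponin, changed by 0.25 ± 0.08, the small chaperone Cryab by 0.24 ± 0.06, and the Z-disc protein gene Tcap by 0.23 ± 0.09 with hearts that overlapped. Myh6 (0.19 ± 0.08), Tpm1 (0.18 ± 0.09) and Myoz2 (0.15 ± 0.06) were the others that rose. The giant sarcomere gene Ttn had the same value in all Val/Val hearts. With the length trend removed, 3 of the 30 rose and 1 fell, and across the fits without 1 heart 5 to 6 rose.

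Of 26 genes of calcium cycling tested, 3 (11.5%) fell and 1 rose, and the median was -0.07. Over all genes tested, 3.48% fell and 6.6% rose. Atp2a2, the calcium pump SERCA2 of the sarcoplasmic reticulum, was 591958, 558912, 575198, 575198 and 575198 in Val/Val and 522819, 493633, 408480 and 472399 in Met/Met hearts. The Met/Met hearts were all lower, with a log2 fold change of -0.28 ± 0.12 (adjusted p = 0.438), and 3 of the Val/Val values were tied. Pln, the inhibitor of that pump, was 131363, 186976, 156722, 163977 and 149788 in Val/Val and 143328, 128355, 122651 and 131161 in Met/Met hearts. Met/Met replicate 1 lay above Val/Val replicate 1, so the groups overlapped, and the difference was -0.26 ± 0.10 (adjusted p = 0.372). Itpr1, a calcium release channel, fell too (-0.14 ± 0.07). S100a1, a regulator of SERCA2 and the ryanodine receptor, rose by 0.17 ± 0.07, but its difference was -0.02 with the length trend removed. None of the calcium genes passed the adjustment. With the length trend removed, 1 of the 26 fell, against 399 of all 13469 genes in that fit. Of 24 ion channel and connexin genes, 2 fell, among them Trpm4 (-0.23 ± 0.09), and none rose. Of 20 genes of adrenergic and muscarinic signalling, 2 fell and 2 rose, among them Adcy6, a main cardiac adenylyl cyclase (-0.18 ± 0.07), and Pde4b, a phosphodiesterase that degrades cyclic AMP (0.24 ± 0.09). Among 15 genes of cardiac stress and the fetal programme, Lgals3 rose (0.85 ± 0.39), and the natriuretic peptide gene Nppb had values of 3275, 1788, 2419.8, 2116 and 2767 in Val/Val and 3296, 2002, 2736 and 2624 in Met/Met hearts, fully overlapping (0.12 ± 0.32, adjusted p = 0.914).

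**Figure D4:**
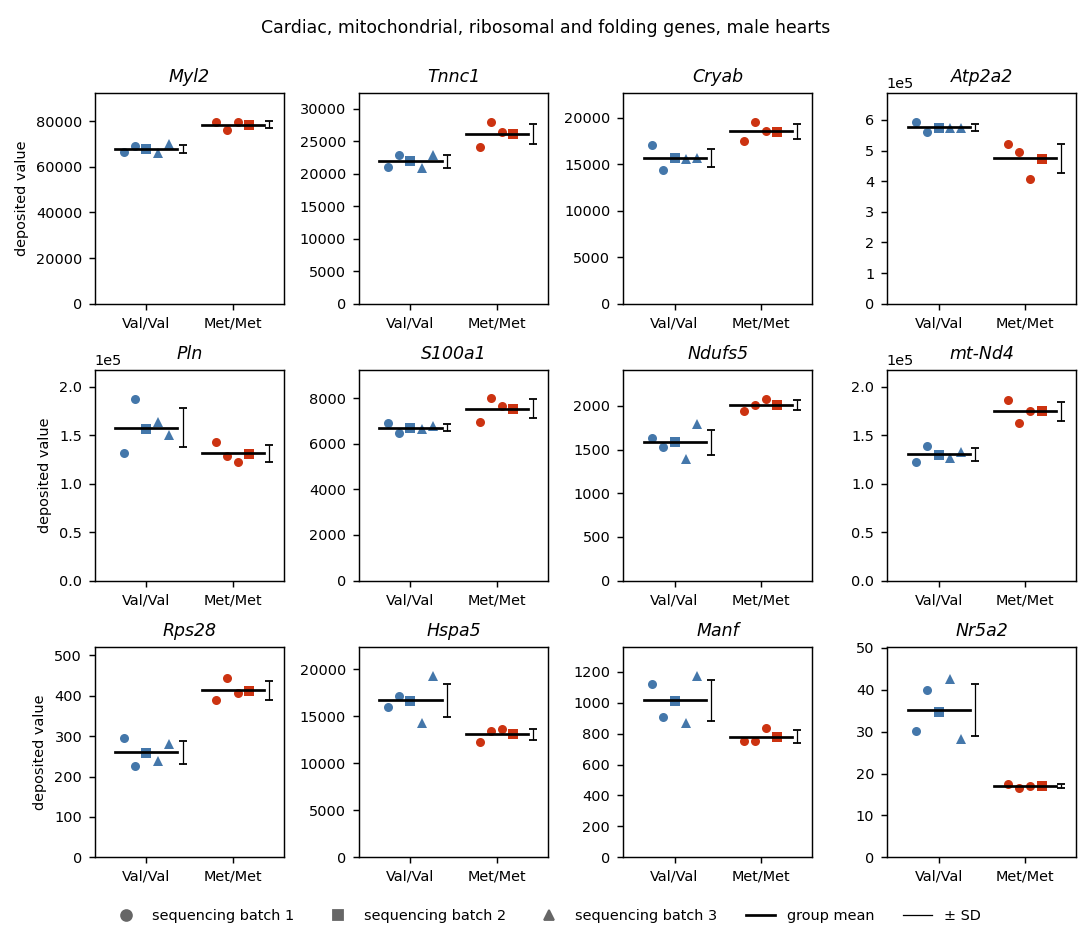
Deposited values (vertical axes, from 0) of 12 cardiac, mitochondrial, ribosomal, protein-folding and regulatory genes in the 5 Val/Val and 4 Met/Met male hearts. Symbols give the batch, lines the group mean and bars ± SD; Myl2, Ndufs5, mt-Nd4 and Rps28 are higher and Atp2a2, Hspa5, Manf and Nr5a2 lower in every Met/Met heart, whereas Pln overlaps.

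Chaperones of the endoplasmic reticulum were among the falls. Of 29 protein folding and integrated stress response genes, 5 (17.2%) fell and none rose, with a median of -0.01. Over all genes tested, 3.48% fell and 6.6% rose. Hspa5, the chaperone BiP that gates the unfolded protein response, was 16031, 17217, 16613, 14342 and 19244 in Val/Val and 12281, 13391, 13652 and 13094 in Met/Met hearts. All of the Met/Met hearts were below the Val/Val hearts, and the log2 fold change was -0.34 ± 0.11 (adjusted p = 0.243). Manf, a secreted protein of the same response, was 1122, 905, 1008, 869 and 1169.7 in Val/Val and 754, 752, 838 and 780.4 in Met/Met hearts, also separate (-0.37 ± 0.14). Pdia6 (-0.19 ± 0.07), Dnajc3 (-0.39 ± 0.16) and the stress sensor kinase Eif2ak3 (-0.21 ± 0.09) were the others. The transcription factors of the response, Atf4 (0.14 ± 0.08), Xbp1 (-0.02 ± 0.08) and Ddit3 (0.01 ± 0.14), did not pass the test. With the length trend removed, 4 of the 29 fell.

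Leaving out predicted genes and clones, 4 genes fell at least 1.5-fold with separate hearts. Yy2, a zinc finger transcription factor gene without introns on chromosome X (157566119 to 157568985), was 18.1, 96.4, 41.8, 50.6 and 34.4 in Val/Val and 6.35, 3.75, 3.95 and 4.55 in Met/Met hearts. All 4 Met/Met hearts were below all Val/Val hearts, of which the 2 in the first batch were the lowest and the highest. The log2 fold change was -3.20 ± 0.41 (adjusted p = 0.00185). Nr5a2, a nuclear receptor also called LRH-1 that is best known from liver (chromosome 1, 136842571 to 136960448), was 30, 39.9, 34.6, 42.6 and 28.1 in Val/Val and 17.4, 16.4, 17.1 and 17 in Met/Met hearts. The Met/Met hearts were close together and all below the Val/Val hearts, with a log2 fold change of -1.03 ± 0.25 (adjusted p = 0.122). Zbtb16, a transcription factor induced by glucocorticoids, was 5149, 5565, 5353, 4824 and 5940 in Val/Val and 4079, 3057, 3279 and 3445 in Met/Met hearts, a change of -0.64 ± 0.16 (adjusted p = 0.141). It was the only 1 of 16 glucocorticoid targets past the test. AI480526, a locus without a described function, changed by -0.64 ± 0.23.

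Of the predicted genes and pseudogenes, the largest falls with separate hearts were those of Gm6361 (-1.45 ± 0.59), Gm18066 (-1.16 ± 0.39) and Gm47644 (-1.06 ± 0.18, adjusted p = 0.0296). The largest rises were those of Gm4841 (2.64 ± 0.99), Gm7331 (2.14 ± 0.43, adjusted p = 0.0423) and Gm12250 (1.63 ± 0.61). Gm4841 ranged from 17.7 to 243 among the Met/Met hearts alone. BC023105, the largest rise among the other symbols (2.01 ± 0.64), was 9.98, 27.5, 16.6, 15.7 and 17.5 in Val/Val and 109, 28.8, 95.1 and 66.8 in Met/Met hearts, where replicate 2 lay close to the highest Val/Val heart. Reads of such loci can come from expressed relatives.

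Vessel, matrix and metabolic genes changed little. Of 32 endothelial and vascular genes, 3 fell and 1 rose. Flt1, a receptor of VEGF, was 4944, 4911, 4928, 4940.5 and 4915 in Val/Val and 4149.9, 4248, 4455 and 4282 in Met/Met hearts. It was lower in every Met/Met heart (-0.20 ± 0.06), as was Myh11, the smooth muscle myosin (-0.41 ± 0.14), whereas the growth factor gene Vegfb rose (0.18 ± 0.07). Of 35 extracellular matrix and fibroblast genes, 1 fell, the protease inhibitor gene Timp3 (-0.23 ± 0.09). Fatty acid uptake and oxidation had 3 of 39 higher, including the thioesterase Acot13 (0.18 ± 0.08, -0.0036 with the length trend removed) and the pyruvate dehydrogenase kinase Pdk2 (0.17 ± 0.07). Glycolysis had 3 of 27 higher, led by Gapdh (0.36 ± 0.12), and insulin and growth signalling had 1 of 25 lower, Irs1 (-0.19 ± 0.08). Of 19 hypoxia targets 3 rose, among them Hmox1 (0.60 ± 0.18), and 1 fell. In 18 atrial and conduction genes Tbx5 rose (0.27 ± 0.12), in 18 immediate early genes Ier3 rose (0.42 ± 0.16), and in 20 cell cycle genes Mcm5 rose (0.56 ± 0.21). Of 2 thymus and lung genes tested, the class I-like gene Cd1d1 rose (0.38 ± 0.15). None of 6 adipocyte, 5 skeletal muscle, 7 nerve and Schwann cell and 4 sex-linked genes passed the test.

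None of the 17 tested genes of the neurotrophin system passed the test, and the list median was 0.00. Bdnf was 221, 375, 288, 221 and 374 in Val/Val and 371, 240.3, 266 and 287 in Met/Met hearts. The hearts overlapped fully, with a log2 difference of -0.00 ± 0.21 (adjusted p = 0.997). How reads of the human sequence in the Met allele were aligned was not tested. Sort1, the gene of the receptor sortilin, was 1702, 1349, 1515, 1710 and 1343 in Val/Val and 1461, 1547, 1491 and 1499 in Met/Met hearts, again overlapping (-0.02 ± 0.12). The receptor genes Ntrk2 and Ngfr had no values in the data and could not be analysed. Within 10 megabases of Bdnf on chromosome 2, where a knock-in line can keep the strain background of its founder cells, 11 of 92 tested genes (12%) had an unadjusted p under 0.05, against 1385 of the 13733 genes tested, and none was called by limma. Within 20 megabases it was 21 of 244 (8.61%), of which B2m was called.

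The male difference was then set beside that of female hearts with the same genotypes (6 Met/Met and 6 Val/Val), and the difference between the 2 was tested. It had an adjusted p under 0.05 for 31 genes (0.226%) and an unadjusted p under 0.05 for 1975 (14.4%). Leaving out Val/Val replicate 2 or 5 or Met/Met replicate 3 gave 14 genes in place of 31, and leaving out Val/Val replicate 3 or Met/Met replicates 2 or 4 gave 10. Of the 191 called genes, 3 were among the 31. An unadjusted p under 0.05 for the difference (limma) was found in 118 of the 191 (61.8%), against 14.4% of all genes. The called genes were chosen on the male difference, which is part of the difference between the sexes, so a higher share is built in. The antigen presentation genes were not among the 31, although their female differences were near 0. For B2m the log2 fold change was 0.95 in male and -0.08 in female hearts, and the difference between the sexes was 1.04 ± 0.25 (adjusted p = 0.0876). For H2-Q7 it was 1.45 and -0.01 (adjusted p of the difference, 0.104). The median of the class I list was 0.45 in male and -0.04 in female hearts, and 13 of the 24 genes had an unadjusted p under 0.05 for the difference.

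Clock genes differed between the sexes. Dbp, an output transcription factor of the circadian clock, was 862, 1169, 1004, 1107 and 910.3 in male Val/Val and 1216, 2026, 1538 and 1559 in male Met/Met hearts, separate by 0.64 ± 0.13 (adjusted p = 0.0555). In female hearts it ranged from 3640 (lowest) over 3911 (median) to 4368 (highest) in Val/Val and from 1107 over 1325 to 1502 in Met/Met hearts. The female Val/Val hearts were thus far above the 3 other groups, and the female log2 fold change was -1.59. The difference between the sexes was 2.23 ± 0.18 (adjusted p = 3.42e-07). Bhlhe40, a repressor in the clock, changed by 0.57 in male and -0.53 in female hearts (adjusted p of the difference, 0.00276), and Nfil3, which opposes Dbp at shared sites, by -0.41 and 0.98 (adjusted p of the difference, 0.00276). In male hearts 2 of the 20 clock genes rose and 1 fell, with a median log2 fold change of 0.06. In female Met/Met against female Val/Val hearts 6 of the 20 rose and 12 fell, with a median of -0.32. The core activator Arntl was -0.27 ± 0.24 in male and 1.26 in female hearts (adjusted p of the difference, 0.0408). For 15 of the 20 genes the difference between the sexes had an unadjusted p under 0.05.

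**Figure D5:**
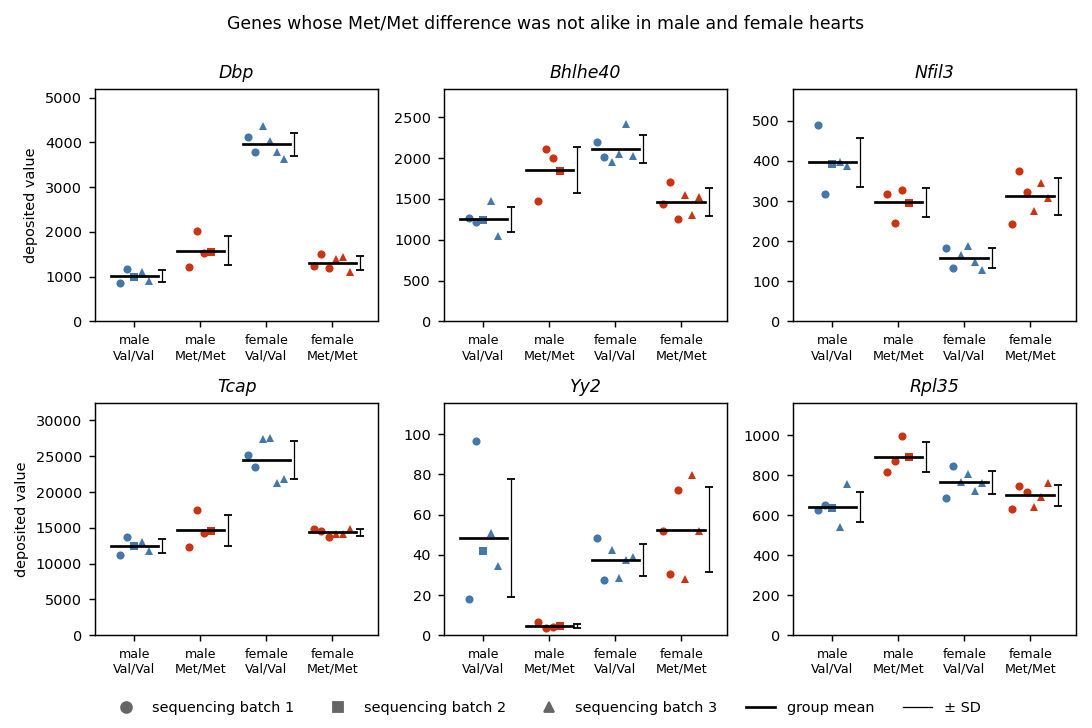
Deposited values (vertical axes, from 0) of 6 genes whose Met/Met difference was unlike in male and female hearts, in 5 male Val/Val, 4 male Met/Met, 6 female Val/Val and 6 female Met/Met hearts. Lines are group means and bars ± SD; Dbp and Tcap are highest in female Val/Val hearts, with medians of 3911 and 24358, and Yy2 is lowest in male Met/Met hearts, with a median of 4.25.

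Tcap, Yy2, Gm47644 and Rpl35, named above, also differed between the sexes after adjustment. Tcap changed by 0.23 in male and -0.76 in female hearts (adjusted p of the difference, 0.000521), with values of 21314 to 27565 in female Val/Val and 13686 to 14875 in female Met/Met hearts. Yy2 ranged from 27.6 to 48.3 in female Val/Val and from 27.9 to 79.7 in female Met/Met hearts, so that the low values were seen in male Met/Met hearts alone among these 4 groups (difference -3.61 ± 0.55, adjusted p = 0.00276). Gm47644 changed by -1.06 and 0.50 (adjusted p of the difference, 0.00276). Rpl35 changed by 0.48 in male and -0.13 in female hearts (adjusted p of the difference, 0.0429). Male hearts with a single Met allele (6 Val/Met), which were compared with the same Val/Val hearts, are given side by side only. There the log2 difference was 0.03 for B2m, -0.10 for H2-Q7, -0.07 for Igtp, 0.16 for Cxcl9, 0.28 for Yy2, -0.22 for Nr5a2, -0.03 for Atp2a2 and -0.11 for Hspa5. The medians were -0.06 for the class I list, 0.02 for the class II list and -0.06 for the respiratory chain list.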

How the data were processed

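Expression was measured by RNA-Seq in 31 whole hearts. The authors deposited 1 table of normalized gene values, treated here as signal values and not as counts. Per the labels and methods, reads were aligned with STAR (3.5.1a in the labels, another version in the methods) to mm10 and quantified in Partek. The labels and methods also name different RNA extractions and library kits. The equal batch means within groups are a step that neither source describes. Where a sample is alone in its batch, it adds no spread.

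Values were analysed as log2(value + 0.0001) in limma 3.58.1 (R 4.3.3; linear models with trended empirical Bayes moderation), fitted over all 31 hearts with 1 mean per group and batch. Genes needed a mean of at least 29, which 13733 of 13840 passed. Group means weighted hearts alike. Fold changes are on this log2 scale with their SE, and p-values were adjusted by Benjamini-Hochberg over all genes tested. Replicates are separate mice. The precision of a value is given by the spread between hearts, since read depth is unknown. The procedure was tested on simulated data.

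The members and the 40 gene lists were chosen with earlier results of these data known. Genes were named by a rule: Bdnf, 3 receptor genes and the 4 cardiac genes that the study measured by qPCR, the 12 largest rises and falls among called genes with separate hearts (3 for predicted genes), the 3 members with the smallest p under 0.05 of each list, and the 5 called genes with the smallest p for the difference between the sexes. Further list members were picked after their values were seen. A few genes named by this rule are not reported here. Positions, biotypes and lengths came from GENCODE for GRCm38, the assembly also named mm10, and promoters from RefSeq. Alternatives were other treatments of batch, offset, minimum, scaling, trend and samples, and each heart left out. Leaving out the second batch and removing the length trend (lowess, span 0.3) were chosen after seeing the data.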

Additional observations from a re-analysis of the deposited data

Results flagged for a closer look

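For 7 of the genes named by the rule, the Met/Met difference was unlike in male and female hearts at an adjusted p under 0.05 (limma). Genes mentioned outside the rule passed too, among them Arntl (adjusted p = 0.0408), Tmem44 (0.00276), Tmtc2 (0.0176) and Gm4149 (0.0408). For the 7, the male minus female difference in log2 fold change was 2.23 for Dbp, 1.10 for Bhlhe40, -1.40 for Nfil3, 0.99 for Tcap, -3.61 for Yy2, -1.56 for Gm47644 and 0.61 for Rpl35. For Dbp and Tcap the highest of the 4 groups was female Val/Val, with means of 3955 and 24468, and for Nfil3 that group was the lowest, with a mean of 158. For Yy2 the lowest group was male Met/Met, with a mean of 4.65. In the named genes, no gap between the highest or lowest heart and the next of its group passed Dixon's 95% critical value on the log2 scale, but the mirrored pairs of hearts within batches make such gaps less likely.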

How the results depend on the processing

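The direction of the 85 named genes with an unadjusted p under 0.05 was kept in every alternative except for S100a1 (-0.021) and Acot13 (-0.0036) with the length trend removed. Many alternatives could not change it. The log2 fold change cannot move in fits that alter only the batch term, the other groups, the minimum or the moderation trend. Because batch means are equal, it also cannot move without Val/Val replicate 3, Met/Met replicate 4 or the second batch. Of the 85, 22 lost an unadjusted p under 0.05 with the 9 hearts alone, 19 with the length trend removed, 15 with the replicate block, 12 without the second batch, and 2 to 19 without 1 heart, the most without Met/Met replicate 2. A minimum of 290 tested 56 of the 85, and these kept it. Reversals were otherwise limited to Bdnf, Sort1 and Nppb, which had not passed the test. Bdnf was 0.022 and Sort1 0.047 with the length trend removed, where Nppb was -0.056. Without 1 heart Bdnf ranged from -0.126 to 0.092 and Sort1 from -0.059 to 0.028. The count of adjusted p-values depended most on how batch entered. It was 20 in the male comparison and 31 for the difference between the sexes, against 396 and 748 with 1 mean per group and no batch, 189 and 465 with an additive batch term, 1 and 10 with batches weighted alike, 10 and 12 without a trend, and 1 and 10 without the second batch. In the male comparison it was also 10 with the 15 male hearts, 6 with the length trend removed, and 0 with the 9 hearts alone, where 826 genes had an unadjusted p under 0.05 (limma). Genes called lower were 98 without batch, 42 without the second batch and 5 with a minimum of 290, where 27 were called higher. With that minimum, 892 genes still had an unadjusted p under 0.05 (limma), against 1385 in the main fit. Most of the called genes thus had a mean under 290. With the length trend removed, 74 were called higher. Leaving out each heart in turn gave 85 to 199 genes called higher, 43 to 159 called lower, 1 to 53 with an adjusted p under 0.05, and 10 to 45 for the difference between the sexes. An offset of 1, no minimum and upper-quartile scaling left all 4 counts within 1.5 times.

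Same-numbered replicates deviated in opposite directions, with correlations of -0.35 and -0.20 for replicates 1 and 2. Replicates 3 and 4 could not be checked, since each number has a heart alone in its batch. Val/Val replicates 1 and 2 mirror each other, so the 2 correlations are not independent. They cannot show whether the numbers pair the hearts. With the replicate block, 0 genes had an adjusted p under 0.05, 1014 an unadjusted p under 0.05 (limma), 86 were called higher and 55 lower, the difference between the sexes had 11, and Bdnf was 0.028. The cause of these changes was not tested. Only 4 independent deviations exist among the 9 hearts. With depth unknown, the counting error of genes of low value could not be estimated.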

Other observations

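Of the 20 genes with an adjusted p under 0.05 (limma), 7 have not been described. Among the falls were Tmem44 (-0.52 ± 0.09) and Tmtc2 (-0.43 ± 0.08), which encode membrane proteins. In female hearts their log2 fold changes were 0.28 and 0.18. Among the rises were Mrps21, a mitochondrial ribosomal protein gene (0.47 ± 0.09), Atp5mpl, a small subunit of ATP synthase (0.38 ± 0.08), the processed pseudogenes Gm10263 and Gm4149, and Gm25395, annotated as a small Cajal body RNA gene. With the length trend removed, Tmem44, H2-Q4, H2-Q6, Gm47644 and Yy2 still passed. Of the 191 called genes, 11 (5.76%) had an unadjusted p under 0.05 in the comparison of female Met/Met with female Val/Val hearts, against 1443 (10.5%) of the genes tested.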
